A study of Homo sapiens with 11 samples.

Results

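The 5 genes with extreme responses to thapsigargin, KLHDC7B, ECM2, LOC105377677, IL7R and MAP2K6, were taken by name from a table of 38021 genes. They were chosen by their measured rise or fall under thapsigargin (Tg) against vehicle in these same libraries, so that contrast is given for them as a description, without a test. The cells were HEK293T, an established human embryonic kidney line of wild-type genotype, and each treatment lasted 6 h. The 11 conditions were vehicle (0.1% DMSO), Tg at 500 nM, the compound AA147 at 10 µM, and the compound AA132 at 0.1, 0.3, 1, 3, 6, 10, 15 and 30 µM. Each condition had 3 libraries. The labels list 1 sample for each condition and the table holds 3 numbered columns for it, and the labels do not say that these came from separate cultures, so p-values measure the spread between these columns, which may be technical.

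Tg blocks the calcium pump that fills the endoplasmic reticulum (ER), and loss of ER calcium causes proteins to misfold there. Cells answer with the unfolded protein response, in which the sensors ATF6, IRE1 and PERK raise chaperones such as HSPA5 (BiP) and, through ATF4, the transcription factor DDIT3 (CHOP). The compounds AA147 and AA132 have been studied as activators of this response.

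Library totals ran from 32.3 to 37.96 M counts. Columns of 1 condition differed by more than counting error, which gives a chi-square of about 1 for each degree of freedom: the values were 4.48 to 59.4, with a median of 7.56, and the highest belonged to a pair of vehicle libraries. Library 1 stood apart in vehicle, AA147 and AA132 at 10 µM. Its pairs gave 59.4 and 46.2, then 23.0 and 22.2, then 36.1 and 33.7. Libraries 2 and 3 gave 7.47, 4.83 and 6.52 in these conditions. All 6 HEK293 markers were detected in every library, with a summed level of 1008 to 1516 CPM (counts relative to library size, corrected by the TMM method). The sum was 1008 to 1046 CPM under Tg and 1237 to 1516 CPM in vehicle. HSPA5 was at 959 ± 73 CPM (SD, n = 3) in vehicle and 11020 ± 276 CPM under Tg, and DDIT3 at 7.85 ± 0.84 and 96.6 ± 6.8 CPM, without overlap of the libraries. In bulk RNA of this kind, fewer cells with a transcript and less transcript per cell cannot be told apart.

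The 250 bases before the start listed in the RefSeq promoter table (GRCh38.p14) are printed for the 3 genes that rose together under Tg and for MAP2K6, the gene that followed the AA132 dose, because known ER stress factors bind short motifs in such windows. For ECM2 the listed start lies inside the gene as both RefSeq and GENCODE span it, and for IL7R inside the GENCODE span, so windows at their outermost starts were not searched. Capitals mark matches to a searched motif, and the ECM2 window shown has none.

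KLHDC7B, chr22:50545649-50545898, plus strand: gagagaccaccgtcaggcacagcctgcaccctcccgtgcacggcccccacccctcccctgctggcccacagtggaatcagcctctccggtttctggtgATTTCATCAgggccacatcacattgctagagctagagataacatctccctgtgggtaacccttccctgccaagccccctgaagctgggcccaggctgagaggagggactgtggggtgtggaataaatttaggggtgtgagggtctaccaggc
ECM2, chr9:92535991-92536240, minus strand: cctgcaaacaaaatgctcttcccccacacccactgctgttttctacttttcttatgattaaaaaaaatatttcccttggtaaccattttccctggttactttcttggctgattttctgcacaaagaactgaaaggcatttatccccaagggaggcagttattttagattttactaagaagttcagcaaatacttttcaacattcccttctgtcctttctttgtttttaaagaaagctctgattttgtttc
LOC105377677, chr5:158051285-158051534, minus strand: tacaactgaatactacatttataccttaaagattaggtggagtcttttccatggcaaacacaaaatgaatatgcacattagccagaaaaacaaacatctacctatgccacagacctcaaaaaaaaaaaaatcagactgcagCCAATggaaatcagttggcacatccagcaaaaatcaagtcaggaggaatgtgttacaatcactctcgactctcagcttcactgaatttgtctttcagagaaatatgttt
MAP2K6, chr17:69414447-69414696, plus strand: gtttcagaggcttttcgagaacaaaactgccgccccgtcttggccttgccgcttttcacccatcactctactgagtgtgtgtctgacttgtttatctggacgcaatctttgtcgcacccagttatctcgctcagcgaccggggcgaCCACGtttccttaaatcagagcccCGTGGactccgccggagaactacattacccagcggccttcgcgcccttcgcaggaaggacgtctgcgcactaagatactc

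The capitals in KLHDC7B are the CHOP-ATF4 element (TGATGNAAT) read on the opposite strand, 152 bases before the start. Windows of 300 bases (250 before and 50 after the start) around 35116 RefSeq starts were searched on both strands, and 0.991% held this element. LOC105377677 held a CCAAT box 109 bases before its start, a motif found in 34.6% of windows. The MAP2K6 window held the half-site CCACG on both strands, 104 and 80 bases before the start, and 38.1% of windows held it. The ER stress response element (0.0769% of windows), its second form (0.0541%) and the UPR element (TGACGTGG, 0.729%) had no match in any window of the 5 genes. The first of these joins a CCAAT box to the half-site, and the second contains the half-site. IL7R and a second MAP2K6 start had no match to any of the 6 motifs. A match is a string of letters and was not tested as a binding site.

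KLHDC7B encodes a kelch-repeat protein and has 1 exon on chromosome 22, from 50545899 to 50551023 on the plus strand (GENCODE v44, GRCh38). It had 0 counts in all 3 vehicle libraries and 162, 221 and 223 counts in the Tg libraries. The 3 Tg libraries stood far above every other library. The Tg level was 5.50 ± 0.95 CPM (SD, n = 3), at least 67.6-fold higher than a floor of 3 counts per vehicle library. AA147 gave 0 counts in all 3 libraries.

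AA132 left KLHDC7B at 0 to 4 counts per library. The counts were 2, 3 and 2 at 0.1 µM, 2, 0 and 2 at 0.3 µM, and 0, 2 and 0 at 1 µM. They were 2, 3 and 3 at 3 µM and 0 in all 3 libraries at 6 µM. At 10, 15 and 30 µM they were 0, 4 and 3, then 4, 1 and 4, then 2, 4 and 3. In all, 17 of 24 AA132 libraries had at least 1 count, 46 counts together, and no order with dose was visible: the lowest dose had reads in all of its libraries and 6 µM had none. On the CPM scale, no AA132 condition reached a mean above 1.49% of the Tg level. On that scale HSPA5 and DDIT3 stood at 16.7% and 13.5% of their own Tg rises at 30 µM.

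ECM2 encodes a secreted matrix protein with leucine-rich repeats, and spans 10 exons on chromosome 9 from 92493554 to 92536655, minus strand (GENCODE v44). It had 0, 1 and 0 counts in vehicle and 88, 61 and 78 under Tg, where it reached 2.06 ± 0.37 CPM (SD, n = 3). The ratio of summed counts, scaled to depth, was 228, with a 95% exact interval of 40.5 to 9043 that covers counting error only. AA147 gave 3, 2 and 1 counts. AA132 gave from 0 to 10 counts in its 24 libraries, with a median of 2, and 17 of them were above 0. The counts at 30 µM were 10, 8 and 0, and the highest at 0.1 µM was 9. The 30 µM mean above vehicle was 7.43 ± 6.92% of the Tg rise on the CPM scale (SD, n = 3).

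LOC105377677 is an uncharacterised long non-coding RNA on chromosome 5, from 158048630 to 158051284, minus strand (RefSeq, GRCh38.p14). It had 1, 0 and 0 counts in vehicle and 64, 51 and 47 under Tg, or 1.47 ± 0.24 CPM (SD, n = 3). The depth-scaled ratio was 163 (95% exact interval 28.8 to 6465). AA147 gave 2, 1 and 0 counts. Under AA132 it had at least 1 count in 13 of 24 libraries and at most 6. At 3 µM all 3 libraries had reads, 4, 3 and 6, against 0, 0 and 0 at 0.1 µM and 1, 0 and 0 at 0.3 µM. Nothing is read from a test of these counts, because the gene passed the filter on low counts only through its Tg libraries. The counts at 6 µM were 0, 2 and 0, so the 3 µM level did not carry to the next dose.

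**Figure D1:**
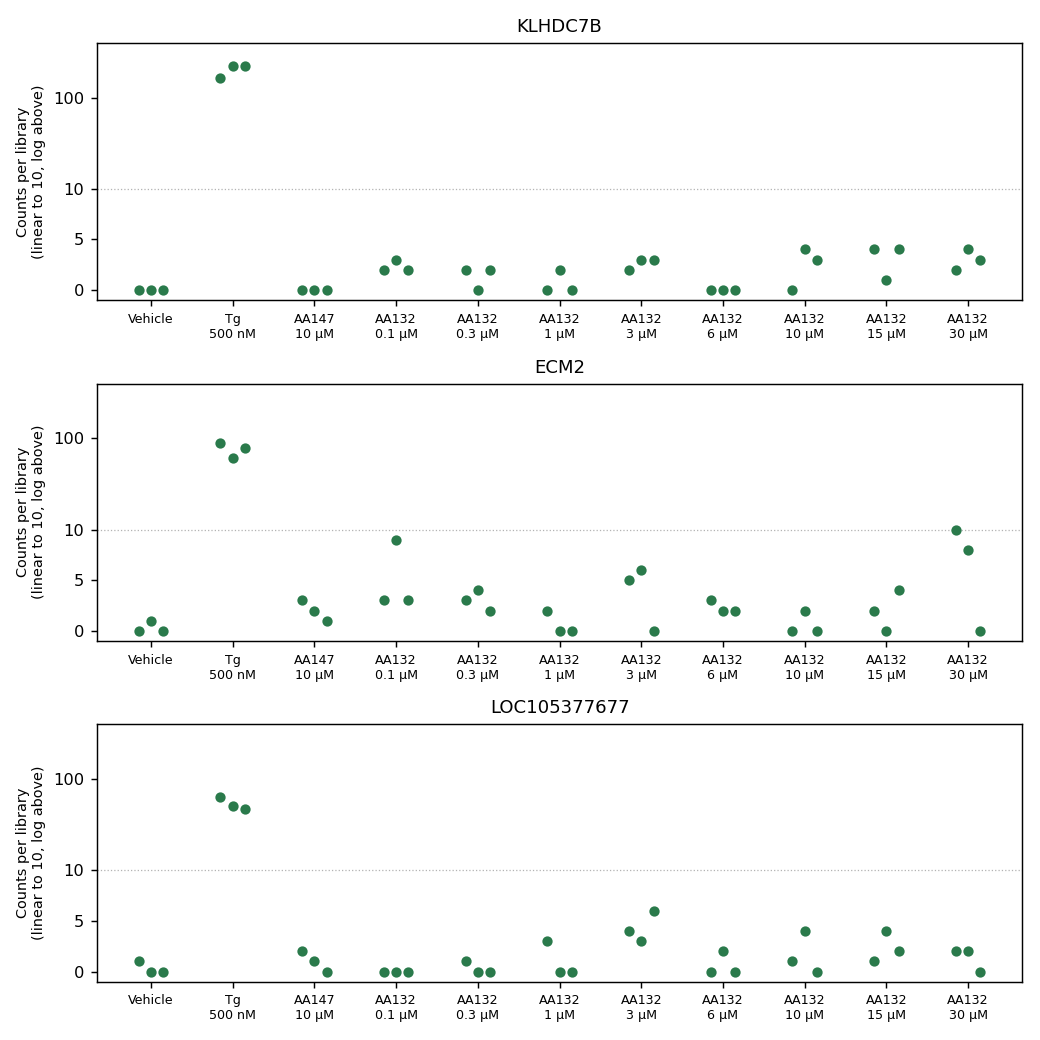
Counts of KLHDC7B, ECM2 and LOC105377677 by condition, with 1 point for each library, on an axis that is linear up to 10 counts (dotted line) and logarithmic above. The Tg libraries stand above all 30 others in each panel, and AA132 libraries lie between 0 and 10 counts at every dose.

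All 3 risen genes passed the filter on low counts only through their Tg libraries, and none passed it among the AA132 libraries alone. Comparisons of AA132 doses for them therefore rest on single reads. At 30 µM against vehicle, KLHDC7B had an adjusted p of 0.0418 (edgeR quasi-likelihood test), from 9 counts against 0. Both groups lie at the floor, so no fold is given, and the call was lost (adjusted p from 0.052 to 0.114) without any 1 of the 3 vehicle libraries, any 1 of the 3 libraries at 30 µM, or Tg library 2 or 3. Against the mean of 0.1 and 0.3 µM, the same dose gave an adjusted p of 0.542.

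MAP2K6 (MKK6), a dual-specificity kinase that phosphorylates and activates the p38 MAP kinases, fell under Tg and, in steps, with the dose of AA132. It lies on chromosome 17 from 69414697 to 69553865, plus strand, with 12 exons (GENCODE v44). Vehicle libraries had 156, 219 and 179 counts and Tg libraries 37, 48 and 43. AA147 libraries had 134, 122 and 130. The AA132 libraries had 201, 184 and 159 counts at 0.1 µM and 152, 152 and 150 at 0.3 µM. At 1 and 3 µM they had 162, 197 and 149, then 159, 128 and 130. From 6 µM the counts were all at or below 120. They were 95, 115 and 101 at 6 µM, 120, 103 and 89 at 10 µM, 92, 89 and 118 at 15 µM, and 74, 90 and 77 at 30 µM.

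The level fell from 5.00 ± 0.84 CPM (SD, n = 3) in vehicle to 1.16 ± 0.15 under Tg, a fitted log2 fold change of -2.10, given as a description. Under AA132 the levels at 0.1, 0.3, 1 and 3 µM were 4.87 ± 0.58, 4.04 ± 0.05, 4.50 ± 0.70 and 3.70 ± 0.40 CPM. At 6, 10, 15 and 30 µM they were 2.75 ± 0.30, 2.92 ± 0.19, 2.69 ± 0.48 and 2.19 ± 0.24 CPM. From high to low, the order was vehicle, 0.1, 1, 0.3 and 3 µM, AA147, then 10, 6, 15 and 30 µM, then Tg. Neighbours in that order overlapped, except that AA147 (3.28 to 3.55 CPM) stood apart from 10 µM (2.78 to 3.14 CPM) and 30 µM (1.97 to 2.45 CPM) apart from Tg (1.00 to 1.31 CPM).

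Over the 24 AA132 libraries alone, which took no part in the choice of the genes, MAP2K6 fell by 0.43 on the log2 scale per 10-fold dose (SE 0.053, adjusted p = 2.7e-07, edgeR quasi-likelihood test with Benjamini-Hochberg adjustment over 17554 genes). Of all genes tested, 18.7% were called, and 8.89% were called lower, at an adjusted p under 0.05. MAP2K6 was 1 of the 2 genes of the 5 that could be tested there, and the other was IL7R.

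Against the mean of 0.1 and 0.3 µM, MAP2K6 had a log2 fold change of 0.02 at 1 µM (95% interval -0.24 to 0.28) and of -0.26 at 3 µM (interval -0.53 to 0.00034, adjusted p = 0.837, edgeR). It was lower at every dose from 6 µM. The log2 fold changes were -0.69 at 6 µM (SE 0.13, adjusted p = 0.0033), -0.60 at 10 µM (SE 0.13, adjusted p = 0.0064), -0.72 at 15 µM (SE 0.13, adjusted p = 0.00088) and -1.02 at 30 µM (SE 0.14, adjusted p = 4.98e-06). Without library 1 at 6 µM, the 6 µM value was -0.62 with an adjusted p of 0.0565, above the threshold of 0.05. At 1 and 3 µM 0% and 0.0281% of all genes were called, and in these 4 comparisons 1.3%, 4.11%, 3.67% and 13.3% of all genes were called. From 6 to 30 µM the further change was -0.33 (SE 0.16, adjusted p = 0.277), a comparison added after the values were seen.

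The same doses were also compared with vehicle, whose libraries had helped to choose the genes. MAP2K6 was lower at 6 µM (log2 fold change -0.86, adjusted p = 0.0010), 10 µM (-0.78, adjusted p = 0.0024), 15 µM (-0.90, adjusted p = 0.00031) and 30 µM (-1.19, adjusted p = 3.1e-06, edgeR throughout). The share of all genes called at these doses was 1.07%, 1.41%, 2.76% and 7.05%. At 30 µM the fall was 56.9 ± 7.6% of the Tg fall on the log2 scale (SD, n = 3), and at 6 µM 41.0 ± 7.5%. The SD of such a share covers the treated libraries only, with the vehicle and Tg means held fixed. On the same log2 scale, HSPA5 reached 41.4 ± 2.8% and DDIT3 36.9 ± 1.8% of their own Tg rises at 30 µM. When the spread was estimated only from the conditions compared, the calls against vehicle at 6, 10 and 15 µM were lost (adjusted p = 0.178, 0.412 and 0.137), and the one at 30 µM was not.

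**Figure D2:**
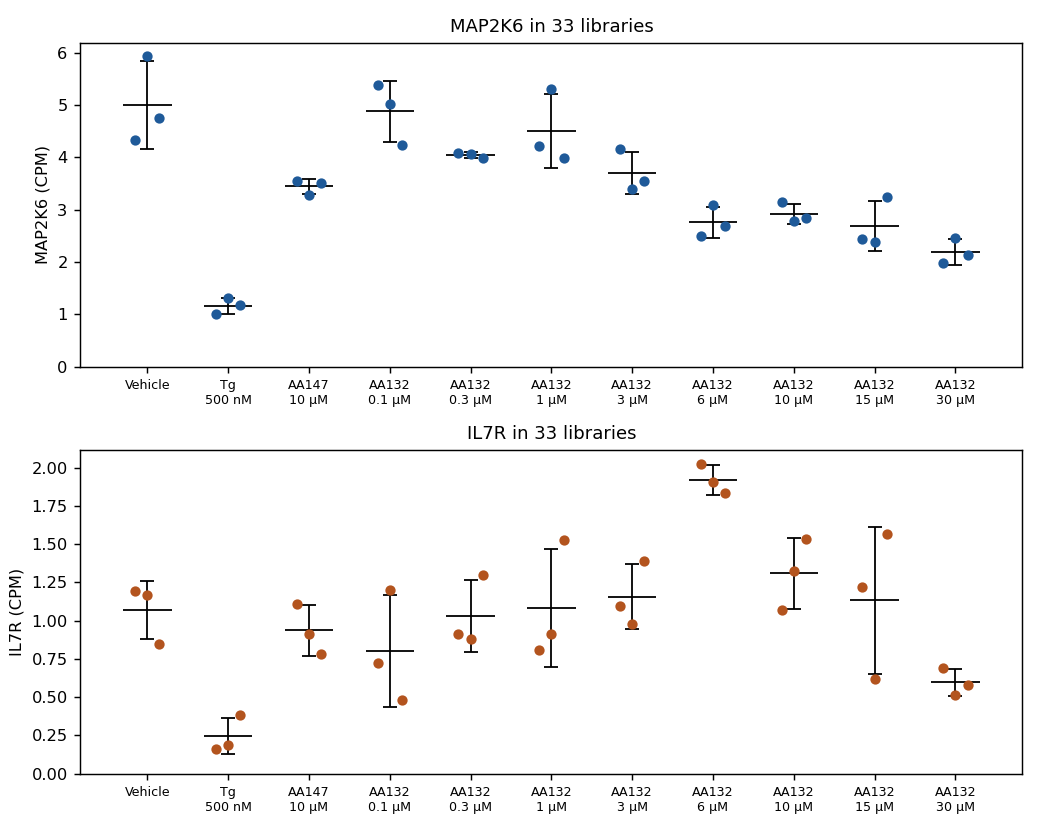
CPM (linear axis) of MAP2K6 and IL7R by condition, with points for the 3 libraries, a horizontal line for their mean and error bars for the SD. MAP2K6 steps down between 3 and 6 µM of AA132 and is lowest under Tg, while IL7R is highest at 6 µM and low at 30 µM and under Tg.

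IL7R encodes the alpha chain of the interleukin-7 receptor, best known in lymphocytes, and lies on chromosome 5 from 35852695 to 35879603, plus strand, with 8 exons (GENCODE v44). Its counts were low, 43, 43 and 32 in vehicle, and 6, 7 and 14 under Tg. AA147 libraries had 42, 34 and 29. Under AA132 the counts were 27, 44 and 18 at 0.1 µM and 34, 33 and 49 at 0.3 µM. These libraries overlapped those of vehicle. At 1 and 3 µM they were 31, 34 and 57, then 42, 37 and 51. At 6 µM all 3 libraries were higher than the 30 others in the series, with 77, 71 and 69 counts. They were 41, 49 and 48 at 10 µM, 46, 23 and 57 at 15 µM, and 26, 19 and 21 at 30 µM.

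In CPM, IL7R was 1.07 ± 0.19 (SD, n = 3) in vehicle and 0.25 ± 0.12 under Tg. It was 1.92 ± 0.10 at 6 µM and 0.60 ± 0.09 at 30 µM, and between 0.80 and 1.31 at the other AA132 doses. The 6 µM libraries ran from 1.83 to 2.02 CPM, above the range of the next condition, 10 µM (1.07 to 1.53 CPM). The 30 µM libraries (0.52 to 0.69 CPM) lay below every vehicle library (0.85 to 1.19 CPM) and above every Tg library (0.16 to 0.38 CPM). The other neighbours in order of level overlapped.

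Against the mean of 0.1 and 0.3 µM, IL7R was higher at 6 µM, by 1.08 on the log2 scale (SE 0.25, adjusted p = 0.0215, edgeR). That call was lost when any 1 library at 6 µM, library 1 or 3 at 0.1 µM, or library 2 at 0.3 µM was left out, with adjusted p-values from 0.0527 to 0.12. At 10 µM the log2 fold change was 0.52 (adjusted p = 0.295), and at 30 µM it was -0.60 (adjusted p = 0.193). Against vehicle it was 0.84 at 6 µM (adjusted p = 0.199) and -0.83 at 30 µM (adjusted p = 0.131). The slope on log10 dose was 0.11 (SE 0.14, adjusted p = 0.622), so no trend in 1 direction passed the test. The direct comparison of 30 with 6 µM, added after these values were seen, gave -1.68 (SE 0.32, adjusted p = 0.0026, edgeR), beside 3.59% of all genes called. These are the AA132 doses with the lowest and the highest mean, and the p-value makes no allowance for that choice. On the scale of the Tg fall, 6 µM stood at -42.2 ± 3.5%, in the opposite direction, and 30 µM at 39.7 ± 9.9% (SD, n = 3). These SDs cover the AA132 libraries only and leave out the spread of vehicle and Tg. With 1 library left out, the 6 µM share ran from -48.4 to -32.0%.

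**Figure D3:**
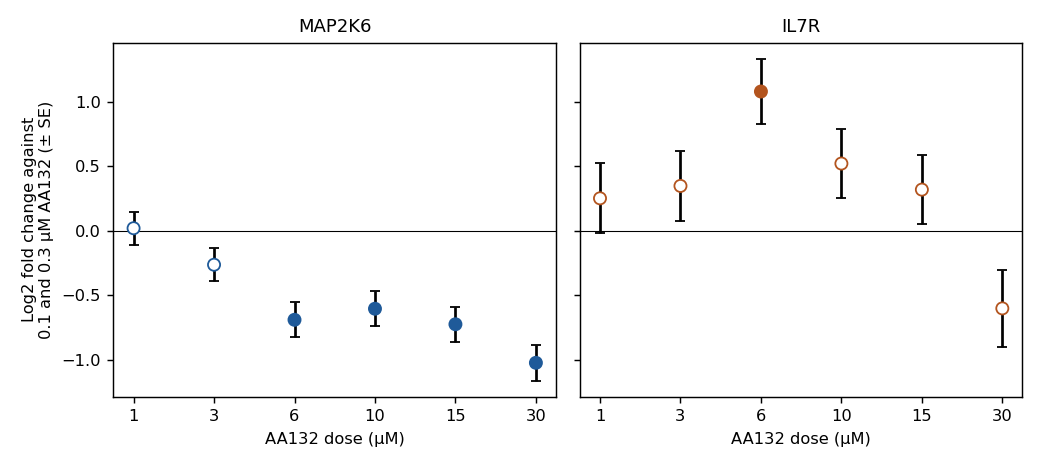
Log2 fold change of MAP2K6 and IL7R at each AA132 dose from 1 to 30 µM against the mean of 0.1 and 0.3 µM, with error bars for ± 1 SE from edgeR, filled points for an adjusted p under 0.05 and open points for the others. MAP2K6 has filled points below 0 from 6 µM on, and IL7R lies above 0 at 6 µM (1.08) and below it at 30 µM (-0.60).

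Counted over the 5 genes, AA132 against the 2 lowest doses gave 0 calls at 1 and 3 µM, 2 at 6 µM (MAP2K6 and IL7R) and 1 each at 10, 15 and 30 µM (MAP2K6). Against vehicle there were 0 calls from 0.1 to 3 µM, 1 each at 6, 10 and 15 µM (MAP2K6), and 2 at 30 µM (MAP2K6 and KLHDC7B). Nothing is read from the KLHDC7B call, which rests on 9 counts against 0 in a gene chosen with those vehicle libraries. At 3 µM, 0.118% of all genes were called against vehicle, and at 0.1 to 1 µM 0%. At an unadjusted p under 0.05 (edgeR), MAP2K6 passed at 0.3 and 3 µM against vehicle, and IL7R at no dose from 0.1 to 3 µM. Neither passed at 1 or 3 µM against the 2 lowest doses. The 3 risen genes are left out here. They passed the filter only through Tg and were chosen for their rise over these vehicle libraries. Against vehicle, this threshold took in 796, 981, 1057 and 1635 of all 17793 genes at 0.1, 0.3, 1 and 3 µM. Against the 2 lowest doses, it took in 424 and 1056 at 1 and 3 µM. DESeq2 called 0 of the 5 genes in these comparisons too.

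AA147 and AA132 could be compared at 10 µM, the 1 matched dose, over 1 pair of compounds. None of the 5 genes was called by edgeR or DESeq2, beside 0.0674% of all genes. KLHDC7B had 7 counts against 0, and no p-value is given for it, because it passed the filter only through Tg. MAP2K6 was lower with AA132 by a log2 fold change of -0.24 (95% interval -0.55 to 0.074, adjusted p = 0.745), and IL7R was higher by 0.48 (95% interval -0.16 to 1.11, adjusted p = 0.75, edgeR). These intervals do not show that the compounds act alike. Against vehicle, none of the 5 was called with AA147 by edgeR or DESeq2 (0.0225% of all genes by edgeR). Its MAP2K6 value was -0.54 (unadjusted p = 0.00095, adjusted p = 0.312, edgeR), or 25.3 ± 3.0% of the Tg fall (SD over the AA147 libraries only).

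**Figure D4:**
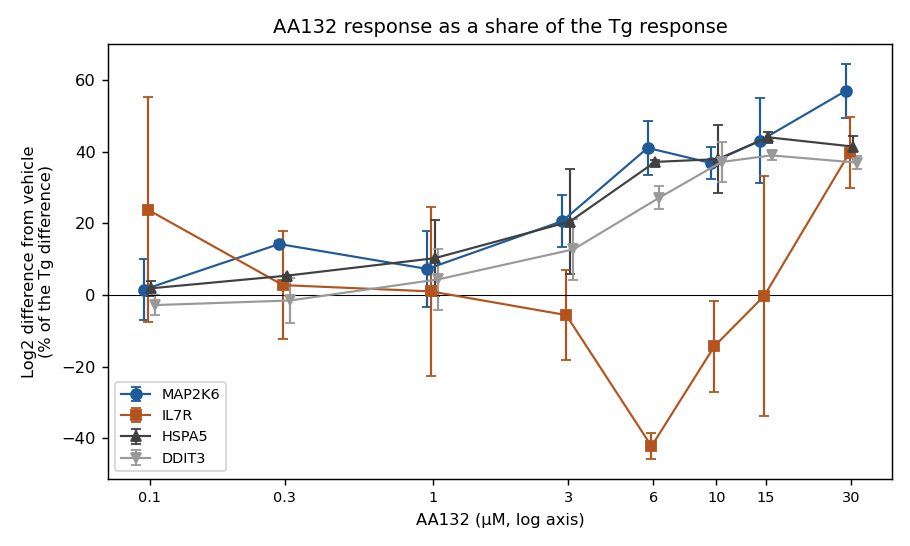
Response of MAP2K6, IL7R, HSPA5 and DDIT3 to each AA132 dose as a percent of the log2 Tg response (dose on a log axis). Points show the mean and bars the SD over the 3 AA132 libraries alone, with the vehicle and Tg means held fixed. They are set slightly apart at each dose to keep the genes visible. MAP2K6 reaches 56.9% at 30 µM, while IL7R is at -42.2% at 6 µM and 39.7% at 30 µM.

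The members were set among the genes with the largest Tg responses, with at least 1 CPM in the higher group, a call and no overlap of libraries. Ordered by fitted log2 fold change, the 3 risen genes came first of 2551 such rises at 10.67, 7.38 and 6.89, and SYT4 followed at 5.56. With 0 or 1 counts in the vehicle libraries together, the fitted values of the 3 genes depend on the prior count inside the edgeR fit. That is not the prior count of 2 used for log2 CPM. The values are no bounds, so neither these sizes nor this order is firm. Among 2279 falls, the heat shock chaperone HSPA1A came first at -2.11, IL7R and MAP2K6 followed at -2.11 and -2.10, and the matrix proteoglycan LUM came next at -2.09. All 5 genes were called under Tg, where 31.2% of all genes were. The contrast chose them, and nothing is read from that count.

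Genes within 100 kb, a property that took no part in the choice, were examined next. Of 42 annotated neighbours, 35 were in the table and 20 were tested. Under Tg 5 were called higher and 4 lower, beside 16.2% and 15% of all genes. Among those higher, MIOX, which encodes an enzyme that breaks down inositol, lies 55.3 kb from KLHDC7B, and rose from 1.53 ± 0.20 to 23.8 ± 1.1 CPM (SD, n = 3; log2 fold change 3.96, adjusted p = 6.5e-17, edgeR). ADM2, a peptide hormone gene 59.5 kb from KLHDC7B, rose from 0.14 ± 0.03 to 2.60 ± 0.46 CPM (4.23, adjusted p = 2.1e-07). LOC107986466, a non-coding RNA 11.3 kb from LOC105377677, rose from 0.10 ± 0.01 to 2.45 ± 0.27 CPM (4.58, adjusted p = 4.2e-08). SPEF2, 42.3 kb from IL7R, rose by 0.78.

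MIOX rose with the dose of AA132, where 18.7% of all genes were called, and LOC107986466 was higher at 30 µM than at the 2 lowest doses. KLHDC7B and LOC105377677 had too few counts for a slope to be tested. Other neighbours with a called slope were MAPK8IP2 (0.15), LMF2 (0.074) and UGT3A1 (0.55), which rose. SBF1 (-0.059), NCAPH2 (-0.064) and LOC100128361 (-0.14, adjusted p = 0.0476, edgeR) fell. Under Tg, LMF2 and SBF1 were called lower and the others of these were not called. MIOX had a slope of 0.69 per 10-fold dose (SE 0.078, adjusted p = 7.8e-08) and reached 5.09 ± 0.80 CPM at 30 µM. LOC107986466 had a slope of 1.00 (SE 0.23), reaching 0.38 ± 0.12 CPM at 30 µM. No test is given for this slope, because the gene passed the filter on low counts through libraries at the higher doses. Its libraries at 0.1, 0.3 and 1 µM lay between 0 and 0.16 CPM. The means were 0.34 CPM at 10 µM and 0.19 CPM at 15 µM, so the rise was not steady. ADM2 had a slope of 0.46 that did not pass the test (adjusted p = 0.0949), and with vehicle added at dose 0 it was 0.60 and passed (0.0187).

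**Figure D5:**
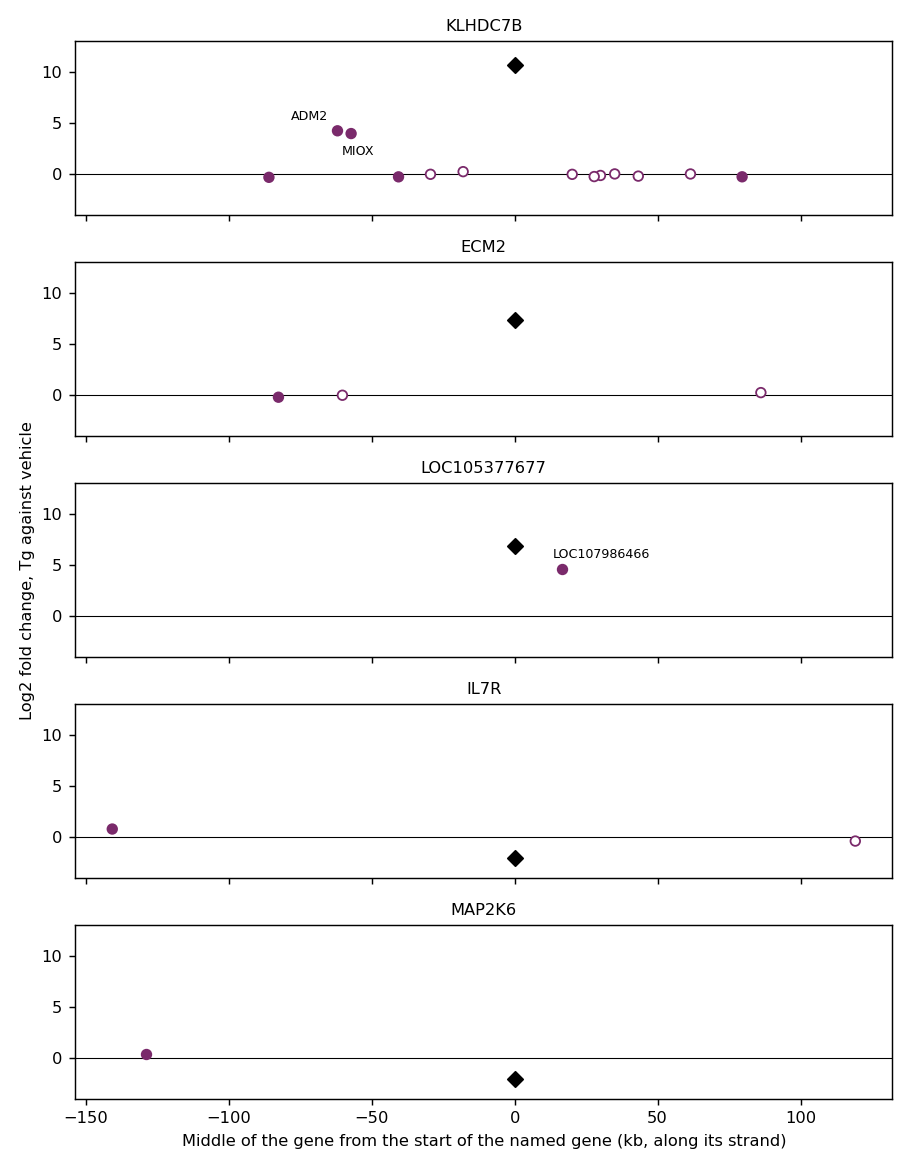
Tg log2 fold change of tested genes within 100 kb of each of the 5 genes, against the distance of their middle from its outermost RefSeq start (kb, along its strand), with diamonds for the 5 genes, filled points for an adjusted p under 0.05 and open points for the others. MIOX (3.96), ADM2 (4.23) and LOC107986466 (4.58) stand apart, and the next highest is SPEF2 (0.78).

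ECM2 lies inside CENPP on the opposite strand, KLHDC7B overlaps KLHDC7B-DT, and MAP2K6 overlaps MAP2K6-AS1. The use of strand in the counting is not given, so reads of these pairs cannot be told apart. CENPP was 13.4 ± 1.5 CPM in vehicle and 15.7 ± 0.6 under Tg (adjusted p = 0.085, edgeR, or 0.0265 without vehicle library 3), and KLHDC7B-DT and MAP2K6-AS1 were at most 0.018 CPM in the means for vehicle, Tg and AA132 at 30 µM.

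Other kinases of p38 signalling were listed beside MAP2K6. Of 20 other kinases from the p38 pathway tested under Tg, 3 rose and 8 fell, where 16.2% of all genes were called higher and 15% lower. Their median log2 fold change was -0.11 beside 0.0048 for all genes; with only Tg and vehicle in the fit, 4 of them were called in all, and 7 without vehicle library 3. MAP3K6 and MAP3K5 (ASK1), kinases upstream of the p38 activators, fell by 0.80 and 0.46, and TAOK2 fell by 0.36. The p38 kinase MAPK13 rose by 0.36. Over AA132 dose, where 18.7% of all genes were called, 0 of the 20 rose and 2 fell, MAP3K5 (slope -0.12, adjusted p = 0.00021) and MAP3K4 (-0.057, adjusted p = 0.0156, edgeR). MAP2K3, the closest relative of MAP2K6 in the list and chosen for mention for that reason, fell by 0.33 under Tg (adjusted p = 0.0045, 0.0637 without vehicle library 1 and 0.0756 with only Tg and vehicle in the fit) and had a slope of 0.02 over AA132 dose (adjusted p = 0.62).

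Of the 15 other interleukin-7 receptor genes, 11 were tested under Tg, 2 rose and 1 fell, with a median of 0.038, beside 31.2% of all genes called. TSLP, a cytokine that shares this receptor chain, rose by 0.88, STAT5B rose by 0.18 and the feedback inhibitor SOCS3 fell by 0.85. The partner chains IL2RG and CRLF2 were at most 0.18 CPM in vehicle, Tg and AA132 at 30 µM. IL7 had 0 counts in vehicle and Tg. STAT5B lost its call without vehicle library 1 or 2 or Tg library 1 or 3 (adjusted p from 0.0814 to 0.113), without the filter on low counts (0.199) and with only Tg and vehicle in the fit (0.159). Over AA132 dose, beside 18.7% of all genes called, SOCS1 rose (slope 0.42, adjusted p = 0.0090) and JAK1 fell (-0.079, adjusted p = 0.0036, edgeR). The SOCS1 slope did not pass the test without the 30 µM dose (adjusted p = 0.0968), nor did that of JAK1 with vehicle added at dose 0 (0.0773). The 9 lymphocyte markers summed to 0.133 to 0.875 CPM in all libraries. CD2, CD3G and MS4A1 were at 0 throughout, while CD79A was detected in every library, at 0.106 to 0.655 CPM.

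Of the 9 other KLHDC genes, 8 were tested under Tg, where KLHDC2 (0.48) and KLHDC10 (0.40) rose and KLHDC8B fell by 0.67, with a median of -0.041, beside 31.2% of all genes called. KLHDC10 lost its call with only Tg and vehicle in the fit (adjusted p = 0.0828). Over AA132 dose, where 18.7% of all genes were called, KLHDC8A and KLHDC9 fell (slopes -0.46 and -0.14, adjusted p = 0.0050 and 0.0174, edgeR) and KLHDC8B rose (0.12, adjusted p = 0.0452). The KLHDC8B call was lost in 12 of 24 fits that left out 1 library (adjusted p up to 0.141), without the 30 µM dose (0.575) and without the filter on low counts (0.0616), and that of KLHDC9 without library 2 at 0.1 µM (0.0673). With vehicle added at dose 0, KLHDC8A and KLHDC8B lost their calls (0.112 and 0.685). Of 12 other leucine-rich matrix genes, LUM was the only one tested, and it fell by 2.09. The 7 fibroblast markers, LUM among them, summed to 42.8 to 52.6 CPM in vehicle, 21.1 to 22.2 under Tg and 36.7 to 37.3 at 30 µM. Nearly all of this was COL1A1 (19.7 to 49.8 CPM over all libraries). COL1A2, DCN and PDGFRB were at 0 in 28, 31 and 18 of 33 libraries. The sum therefore follows COL1A1 and is no measure of fibroblasts, and its relation to the LUM value was not tested.

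The genes whose mean levels ran most like each member were sought over the 11 conditions, among 14598 genes. For MAP2K6 these were CASC10 (r = 0.985), LOC730101 (0.978) and B3GNTL1 (0.976), and over the 10 conditions without Tg the correlations were 0.964, 0.948 and 0.947. CASC10 was 2.62 ± 0.24 CPM in vehicle, 1.39 ± 0.32 at 30 µM and 0.83 ± 0.19 under Tg. Its slope over AA132 dose was -0.29, given without a test because its likeness to MAP2K6 over these same doses chose it. For IL7R they included RALGDS (0.956) and EMILIN2 (0.956), at 0.870 and 0.898 without Tg. The first genes for KLHDC7B, ECM2 and LOC105377677 were DDIT4 (0.982), ZRANB1 (0.980) and ENDOV (0.978), which fell to 0.796, 0.838 and 0.795 without Tg. Outside Tg these 3 members lay at 0 to 10 counts per library. The values without Tg also come from conditions that helped to pick the genes as the highest of all those compared. Nothing is read from these correlations for the 3 risen members. IL7R and MAP2K6 themselves had r = 0.625 over all conditions and -0.042 without Tg. These are descriptions over condition means that share libraries.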

How the data were processed

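RNA sequencing of HEK293T cells gave 1 table with 33 columns, 3 for each of 11 conditions. The deposited values are expected counts, which the authors did not scale between libraries, per the file headers. The submitters' processing notes name the build GRCh38.p7; the aligner, counter, annotation and strand setting are not given in the sources used here. The value 0.009 fills 43.5% of cells and was read as 0, and counts were rounded. Of 38074 rows, 98 sharing 45 names were summed, leaving 38021 genes.

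edgeR 4.0.16 (TMM, filterByExpr, quasi-likelihood F-test, R 4.3.3) fitted all 11 conditions together over 17793 genes, and the slope on log10 dose over 24 AA132 libraries and 17554 genes. Benjamini-Hochberg adjustment ran over all genes tested, with calls at an adjusted p under 0.05. DESeq2 1.42.0 was an alternative. Log2 CPM used a prior count of 2. The SD of a share of the Tg response, on either scale, covers the treated libraries only, with the vehicle and Tg means held fixed. On simulated data, changes of 200 genes at 30 µM against the 2 lowest doses were recovered in 34% of cases at 1.3-fold (6.85% of calls false), 78% at 1.5-fold (3.11%) and 90.5% at 2-fold (5.24%). The simulation gave every gene the same spread and held no outlying libraries. These rates therefore need not hold for the measured libraries or for genes with low counts such as IL7R. The exact intervals of ratios of counts, and the floor of 3 counts, cover counting error alone, because these reads carry no molecular identifiers and so need not be independent molecules; intervals from edgeR include the spread between columns.

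The members, the gene lists and the tests were chosen with earlier results of these data known. Besides the members, the text names HSPA5 and DDIT3, the 3 genes most like each member (for the 3 risen ones, the first), up to 4 called genes of each list and of the neighbours with the largest Tg change, and the genes ranked next to the members. 1 gene that this rule names for IL7R is not reported here. Genes called over AA132 dose, MAP2K3 and CENPP were named after their values were seen. Sequences come from RefSeq (GRCh38.p14), and positions played no part in counting.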

Additional observations from a re-analysis of the deposited data

Results flagged for a closer look

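IL7R differed between AA132 at 30 and 6 µM by a log2 fold change of -1.68 (SE 0.32, adjusted p = 0.0026, edgeR), and drew attention because 2 doses of 1 compound differed. Against the 2 lowest doses the values were 1.08 at 6 µM (adjusted p = 0.0215, not passed when any of 6 libraries was removed) and -0.60 at 30 µM, which did not pass (adjusted p = 0.193). The libraries had 77, 71 and 69 counts at 6 µM and 26, 19 and 21 at 30 µM and did not overlap. The comparison was added after the values were seen, and it sets the AA132 dose with the lowest mean (0.60 CPM) against that with the highest (1.92 CPM). Its p-value makes no allowance for that choice, and neither do the fits that leave out 1 library. Leaving out any 1 of the 33 libraries kept the value between -1.80 and -1.58, with adjusted p-values from 0.0012 to 0.0209.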

How the results depend on the processing

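The MAP2K6 slope stayed between -0.46 and -0.39 and past the threshold under RLE size factors, no filter, a replicate block, DESeq2, no 30 µM dose and vehicle at dose 0, and without any 1 library. Its calls against the 2 lowest doses at 6, 10, 15 and 30 µM were lost only with a minimum log2 change of 1 and, at 6 µM, without 1 library. With that minimum, the calls among the 5 genes fell to 0 in each dose comparison, list calls under Tg to 0, and neighbours called to 3. Without the filter, calls were 2 at 15 µM against vehicle, 1 at 3 µM against the lowest doses and 2 at 30 against 6 µM. MAP2K6 and IL7R were called there as in the main fit, so the added calls were of risen genes. The share of all genes called is not given for these settings, and nothing is read from the added calls. With only the conditions compared, calls against vehicle were 0 at 6, 10 and 15 µM and 1 at 30 µM, and p38 kinases called under Tg were 4. DESeq2 with its own filter left IL7R without an adjusted p at 30 against 6 µM and KLHDC7B at 30 µM against vehicle. It was then run on the genes of the edgeR fit without that filter, added after this was seen. That run called both (9.2e-05 and 0.030) and 2 genes at 30 against 6 µM. Nothing is read from its KLHDC7B call. That gene passed the edgeR filter only through Tg and was chosen with these vehicle libraries. The call beside IL7R at 30 against 6 µM was of a risen gene and is not read either. Interleukin-7 receptor genes called over dose were 1 without 30 µM and 1 with vehicle at dose 0, and KLHDC genes 1 with vehicle at dose 0. With a prior count of 0.5, 0 of the 3 genes most like KLHDC7B stayed among the first 3. Directions reversed for values near 0: IL7R at 1 µM against vehicle was -0.0044 with a replicate block, and MAP2K6 at 1 µM against 0.1 µM alone was -0.12.

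Leaving out 1 library at a time, calls ran from 1 to 3 at 30 µM against vehicle, 1 to 2 at 10 and at 15 µM against vehicle, 0 to 2 at 6 µM against the lowest doses and 1 to 2 at 30 against 6 µM. MAP2K6 and IL7R gained no call in these fits, so counts above those of the full fit came from risen genes. The share of all genes called is not given for these fits, and nothing is read from such added calls. The IL7R share at 6 µM ran from -48.4 to -32.0%. KLHDC genes called over dose ran from 1 to 3 and p38 kinases called under Tg from 7 to 10. Values that changed sign ran from -0.25 to 0.053 (IL7R, 0.3 µM against vehicle), -0.078 to 0.46 (IL7R, 1 µM against the lowest doses), -0.31 to 0.19, -0.039 to 0.22 and -0.21 to 0.38 (IL7R, 1, 3 and 15 µM against vehicle), -0.13 to 0.098 (MAP2K6, 0.1 µM against vehicle) and -0.11 to 0.10 (MAP2K6, 1 µM against the lowest doses). The cause was not tested.

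The column numbers showed no general pairing of the libraries: over 165 pairs of same-numbered columns the correlation of deviations ran from -0.15 to 0.18, with a median of 0.00061. The highest was between library 1 of AA147 and library 1 of AA132 at 10 µM, the conditions compared at the matched dose. A replicate block left the number of members called as it was in every comparison, 2 at 6 µM against the lowest doses and 1 for the slope. At 0 to 10 counts per library outside Tg, depth does not allow a change of KLHDC7B, ECM2 or LOC105377677 with AA132 dose to be measured.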
